A study of Mus musculus with 18 samples.

Results

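The genes described here are 30 targets of the E2F transcription factors that act around the transition from G1 into S phase. They were chosen by symbol from a list of E2F target genes, and all 30 were found among the 24062 rows of the count table. All 30 also passed the filter on low counts in liver, kidney and lung. RNA of whole liver, kidney and lung had been sequenced from mice of the C57BL/6 background strain. CCNE-TA mice carry a Tet-inducible Ccne1 transgene together with rtTA, the doxycycline-dependent activator, and TA mice carry rtTA alone. Both genotypes received doxycycline (dox) from 3 weeks of age and were killed at 4 months, so TA differs from CCNE-TA in the transgene and not in rtTA or dox. There were 3 libraries for each tissue and genotype, which makes 6 groups and 18 libraries. The promoter that drives rtTA, the sex of the mice and whether a library stands for 1 mouse are not given in the sources used here, so the p values measure the spread between these libraries, which may be partly technical.

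E2F proteins bind DNA with a DP partner and are held in check by the pocket proteins RB, p107 and p130. Cyclin-dependent kinases phosphorylate the pocket proteins, cyclin E with CDK2 among them, and the released E2F activates genes for DNA replication, nucleotide synthesis and chromatin assembly. In adult liver and kidney most cells are quiescent, and these genes are known to be kept low there until cells re-enter the cycle.

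The known E2F element is a short GC-rich word, and it can be seen in the promoters of many of these genes. RefSeq promoter windows (build GRCm38.p6, 250 bases before to 50 after a gene's start) were found for 26 of the 30 genes; Usp1, Ccna2, Atad2 and Gmnn had none. The words TTTCCCGC, TTTCGCGC, TTTGCCGC and TTTGGCGC, each 8 letters long and searched on both strands, occurred in a window of 11 of the 26 genes, or 42.3%. Among all 27025 genes with a window the share was 2.6%, and among all 32851 windows it was 2.26%. The shorter words TTCCCGC or TTCCCGG or TTCGCGC or TTCGCGG or TTGCCGC or TTGCCGG or TTGGCGC or TTGGCGG, which the longer ones contain in part, occurred in 17 of 26 (65.4%) against 19.8% of all genes. CCAAT, the word of the factor NF-Y, occurred in 15 (57.7%) against 41.1%, and the CHR words TTTGAA and TTCGAA in 5 (19.2%) against 21.7%. A match is a description of the letters and not a mapped binding site.

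The 7 sites below are those of genes whose values the text turns on. Each is written 5′ to 3′ on the strand that reads the word, with the matched word in capitals and positions counted from the gene's start in that window. Hells (chr19:38930917-38930946, plus strand, -62 to -55) is the only gene with a word of 8 letters among the 4 called in liver that have a window. Mybl2 (chr2:163054609-163054637, plus strand, -15 to -9) had a word of 7 letters, and in Dtl (chr1:191575534-191575563, minus strand, -8 to -1) the word ended right at the start. The others are Uhrf1 (chr17:56304117-56304146, plus strand, -185 to -178), Cdc6 (chr11:98908002-98908031, minus strand, -138 to -131), Cdc25a (chr9:109875501-109875530, plus strand, -67 to -60) and Cdca7 (chr2:72476137-72476166, minus strand, -71 to -64).
Hells: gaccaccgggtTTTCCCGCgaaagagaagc
Mybl2: cgccgacgcacTTGGCGGgagataggaaa
Dtl: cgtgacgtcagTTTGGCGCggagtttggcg
Uhrf1: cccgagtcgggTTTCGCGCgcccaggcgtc
Cdc6: accccaggcgaTTTCCCGCtctccaccggc
Cdc25a: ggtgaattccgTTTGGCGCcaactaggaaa
Cdca7: gggccaccggcTTTCCCGCgccgggacgca

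Dtl and Cdc25a share the word TTTGGCGC and a CCAAT word nearby, yet their transcripts had unlike fold changes (below), so the 100 bases before their starts are shown in full. The first stretch is chr1:191575545-191575644 on the minus strand and the second chr9:109875479-109875578 on the plus strand, with the E2F word and the CCAAT word (or its complement ATTGG) in capitals.
Dtl: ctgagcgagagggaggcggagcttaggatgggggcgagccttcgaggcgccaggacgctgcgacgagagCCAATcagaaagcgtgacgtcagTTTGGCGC
Cdc25a: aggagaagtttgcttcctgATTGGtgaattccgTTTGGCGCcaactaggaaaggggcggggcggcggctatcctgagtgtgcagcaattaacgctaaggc

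The liver libraries held 26214869 to 61954486 counts, those of kidney 20352770 to 43202066 and those of lung 41597623 to 155323865. On the scale of CPM, a gene's count relative to the scaled library total, a count of 3 is worth 0.048 to 0.11 in the liver libraries, 0.069 to 0.15 in the kidney ones and 0.019 to 0.072 in the lung ones, limits for counting error alone. Ccne1, the induced gene, was higher in all CCNE-TA than in all TA libraries of each tissue, at 210 to 353 against 2.05 to 2.82 CPM in liver, 485 to 897 against 1.57 to 2.58 in kidney and 65.7 to 125 against 1.04 to 6.02 in lung. An exact two-sided permutation test of Ccne1 gave 0.1 for every tissue, which is the lowest value possible with 3 libraries a group. The edgeR fit that serves the 30 genes gave Ccne1 an adjusted p of 0.00012 in liver and 7.87e-05 in kidney, but 0.897 in lung at a log2 fold change of 4.61 ± 0.67, so in lung the induced gene itself missed the threshold. DESeq2 (1.3e-12) and the fit of all 18 libraries (0.000628) called it there. Libraries that stand apart were liver TA 2 and TA 3 against TA 1, and lung CCNE-TA 1 and TA 3 against the rest of their groups. Hepatocyte markers led in liver (95000 to 173000 CPM summed over 7 genes), kidney tubule markers in kidney (20400 to 74800, 8 genes) and lung epithelial markers in lung (48700 to 126000, 6 genes), as the tissue labels say.

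The levels in the TA libraries are given per length, as CPM per 1000 nt of transcript scaled over all 18 libraries, so that genes can be compared. Pcna, the sliding clamp of the replication fork, was the most abundant of the 30 in every tissue, with 32.4 ± 2.09 in liver, 20.1 ± 4.07 in kidney and 35.8 ± 3.22 in lung (SD, n = 3 per tissue). At the low end stood Cdc6 in liver (0.0575 ± 0.0366) and Dtl in kidney (0.151 ± 0.0973) and lung (0.232 ± 0.0589). Over the 30 genes the liver median was 2.33, that of kidney 1.73 and that of lung 2.08. The highest mean lay in lung for 15 genes, in liver for 10 and in kidney for 5. Each tissue held the lowest mean for some of the genes, liver for 10, kidney for 11 and lung for 9.

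**Figure D1:**
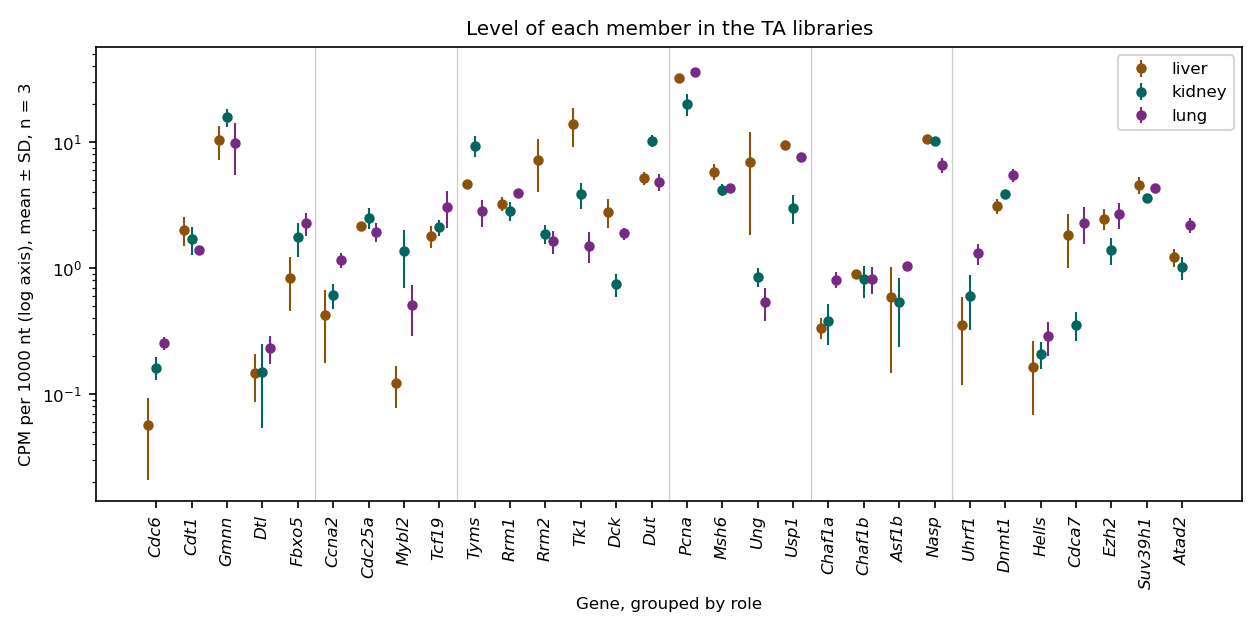
Level of each of the 30 genes in the TA libraries of liver, kidney and lung, in CPM per 1000 nt on a log axis; points are means of 3 libraries, bars are SD, and vertical lines part the role groups (an SD as large as its mean is drawn down to 5% of the mean). Pcna stands highest in each tissue, Tk1 and Ung lie higher in liver than in lung, and Mybl2 lies lower in liver than in kidney.

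Between control tissues, 13 of the 30 genes differed between liver and kidney (edgeR adjusted p under 0.05; 9 higher and 4 lower in liver), where 62.2% of all tested genes did (28.6% higher and 33.6% lower). Between liver and lung 14 differed (6 higher and 8 lower in liver; of all genes 68.5%, with 32.6% higher and 35.8% lower), and between kidney and lung 13 (5 higher and 8 lower in kidney; of all genes 57.3%, with 27.6% higher and 29.6% lower). The shares lie below those of all genes in each pair. For 9 genes no pair of tissues passed the threshold (Cdt1, Gmnn, Dtl, Cdc25a, Tcf19, Chaf1b, Asf1b, Hells and Suv39h1).

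For 3 genes all pairs of tissues differed, each with its own order. Tk1, the thymidine kinase of the salvage pathway, ran from liver (13.9 ± 4.77) over kidney (3.87 ± 0.906) to lung (1.51 ± 0.413). Tyms, thymidylate synthase of the de novo pathway, was highest in kidney (9.39 ± 1.76), then liver (4.69 ± 0.228), then lung (2.82 ± 0.682). Mybl2, a transcription factor of late S phase and G2, was lowest in liver (0.122 ± 0.0448), with lung at 0.509 ± 0.221 and kidney at 1.36 ± 0.659. Liver minus kidney was -3.45 ± 0.56 for Mybl2 on the log2 scale (SE, edgeR adjusted p = 5.94e-05).

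Rrm2 and Ung were higher in liver than in both other tissues (edgeR adjusted p 0.0029 and 0.0012 for Rrm2, 3.63e-05 and 4.02e-06 for Ung). Rrm2, the regulated subunit of ribonucleotide reductase, stood at 7.25 ± 3.26 in liver, 1.88 ± 0.337 in kidney and 1.64 ± 0.345 in lung; the last pair did not differ beyond their spread (edgeR adjusted p = 0.747). Ung, which cuts uracil out of DNA, stood at 6.98 ± 5.16 in liver, 0.859 ± 0.148 in kidney and 0.539 ± 0.156 in lung. Its liver libraries spread from 9.17 to 39.6 CPM, and TA 3 was the highest. Dut, the dUTPase that keeps uracil out of DNA, was highest in kidney (10.3 ± 1.17), while liver (5.19 ± 0.63) and lung (4.83 ± 0.764) did not differ beyond their spread (edgeR adjusted p = 0.637).

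In liver, 5 of the 30 genes rose in CCNE-TA (Tyms, Mybl2, Ccna2, Hells and Dut) and 1 fell (Usp1), by the edgeR quasi-likelihood test at an adjusted p under 0.05. Of all 13811 tested genes 28.5% passed by the same rule, 13.7% higher and 14.8% lower, so the 5 that rose are close to the background share and the 1 that fell is under it. At an unadjusted p under 0.05 there were 14 of the 30, against 42.8% of all genes. The median log2 fold change of the 30 was 0.62, against 0.02 for all genes, and 20 of the 30 lay above 0, against 50.9% of all genes. Groups did not overlap for 10 genes that were higher in CCNE-TA and 2 that were lower, where all genes gave 23.2% and 24.7%. DESeq2 called 8 higher and 1 lower, with 18% of all genes in each direction. In bulk tissue, more cells of a type and more RNA per cell cannot be told apart.

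**Figure D2:**
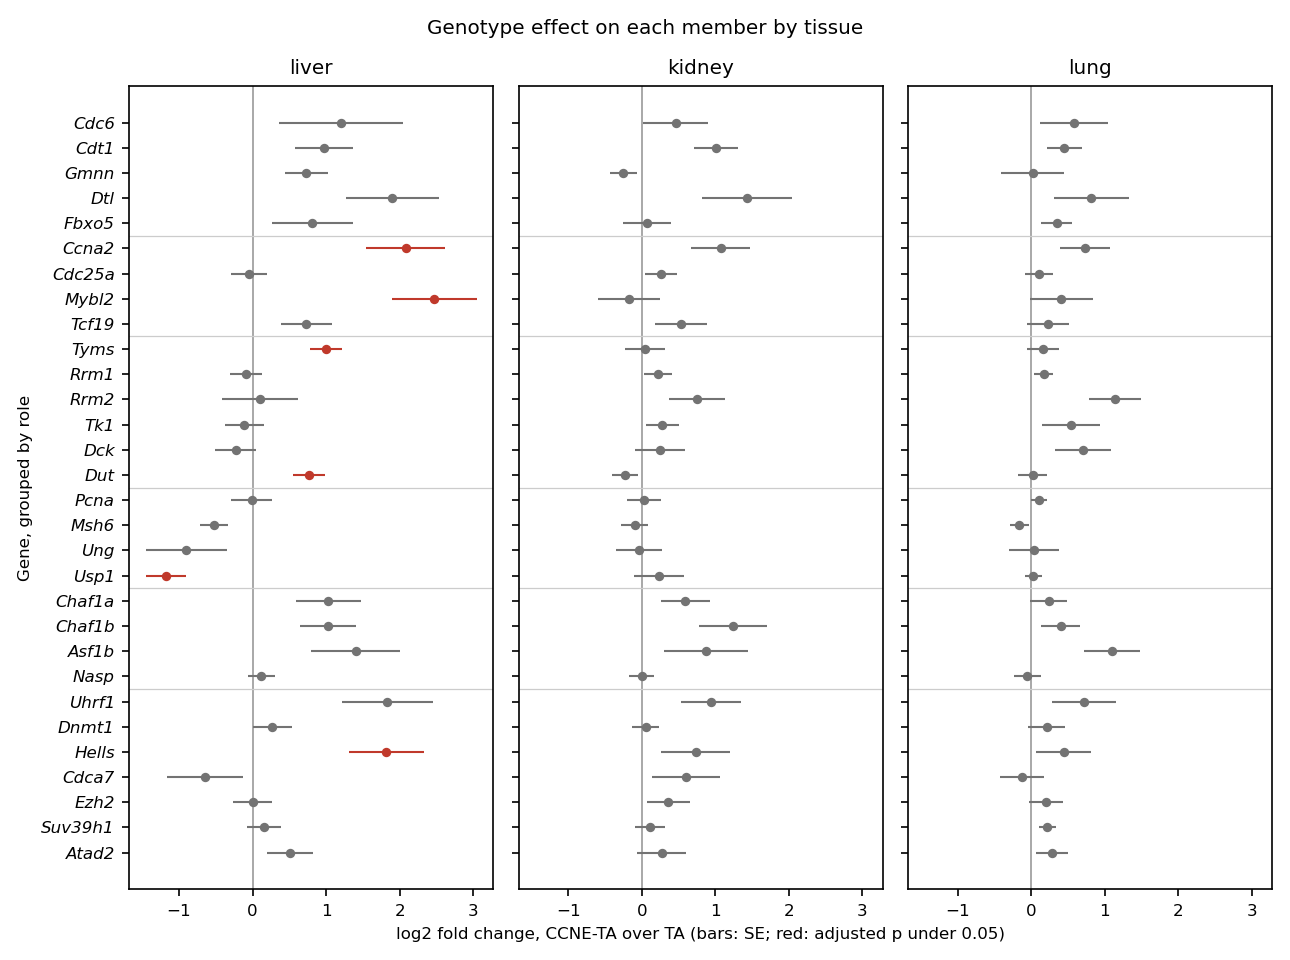
Log2 fold change of CCNE-TA over TA for each of the 30 genes in liver, kidney and lung, with bars of 1 SE (n = 3 libraries per group) and genes past the adjusted p of 0.05 in red; lines part the role groups. Red points occur in liver alone, where Mybl2 reaches 2.47 and Usp1 falls to -1.18.

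Among the licensing genes none passed the threshold in liver, and all 5 had fold changes above 0, with a median of 0.97. Dtl, the receptor of the ubiquitin ligase that removes Cdt1, lay just outside it: its levels were 0.66, 1.08 and 2.79 CPM in CCNE-TA 1 to 3 and 0.573, 0.27 and 0.341 in TA 1 to 3, a log2 fold change of 1.90 ± 0.63 (SE) with an edgeR adjusted p of 0.0525. The groups of Dtl did not overlap, but CCNE-TA 1 stood close to TA 1. Cdt1 and Cdc6, which load the MCM helicase at origins, had log2 fold changes of 0.97 and 1.20, Gmnn (geminin, which blocks Cdt1) 0.73 and Fbxo5 (Emi1, which inhibits the APC/C) 0.81. Cdc6 rests on 2 to 16 counts in the TA libraries.

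Of the cyclin, phosphatase and transcription factor genes, Ccna2 and Mybl2 rose in liver. Ccna2 encodes cyclin A2, which drives S phase with CDK2, and its levels were 1.75, 2.91 and 4.60 CPM in CCNE-TA and 1.15, 0.324 and 0.682 in TA, which is 2.08 ± 0.54 as a log2 fold change (SE; edgeR, adjusted p 0.025). All 3 CCNE-TA libraries lay above all TA libraries, with CCNE-TA 3 highest and TA 1 the nearest control. Mybl2 was at 1.24, 0.75 and 2.39 CPM against 0.35, 0.243 and 0.171, or 2.47 ± 0.58 on the log2 scale (edgeR, adjusted p 0.0174), again with no overlap; the TA libraries hold only 22, 9 and 6 counts of it, and a copy, Gm3320, matches 20.3% of its length. Tcf19, a chromatin-binding protein, had a fold change of 0.73 (log2, adjusted p 0.146). Cdc25a, the phosphatase that activates CDK2, was at 3.63, 5.46 and 4.57 against 4.68, 5 and 4.46 CPM, a log2 fold change of -0.05 with overlapping groups. Ccna2 shares 12.49% of its exon bases with Exosc9 on the other strand, and reads from the overlap cannot be assigned without strand.

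The 6 genes of deoxynucleotide supply split. Tyms rose from 9.77, 10.8 and 10.9 CPM in TA to 20.1, 16.0 and 26.8 in CCNE-TA, a log2 fold change of 1 ± 0.22 with the lowest edgeR adjusted p of the 30 (0.0147). Dut rose from 5.44, 6.62 and 5.40 to 9.01, 9.38 and 11.3 CPM (log2 0.77 ± 0.22, adjusted p 0.0325). For both genes the TA libraries lay close together and below every CCNE-TA library. The other 4, Rrm1, Rrm2, Tk1 and Dck (deoxycytidine kinase), had log2 fold changes between -0.23 and 0.10, and their groups overlapped. Rrm2 spread from 3.71 CPM in CCNE-TA 1 to 15.5 in CCNE-TA 2, and from 5 to 13 within TA.

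The fork clamp and repair genes were the group with no fold change above 0 in liver (median -0.71). Usp1, which removes ubiquitin from PCNA and FANCD2, fell from 19.3, 19.0 and 20.1 CPM in TA to 5.92, 12.3 and 7.55 in CCNE-TA, or -1.18 ± 0.27 on the log2 scale (edgeR, adjusted p 0.0166). The 3 TA libraries agreed closely, and all CCNE-TA libraries lay below them. Msh6, of the mismatch repair complex, was at 8.90 to 10.5 against 12.5 to 16.5 CPM with no overlap (log2 -0.53, adjusted p 0.0678). Ung was at 8.4, 3.7 and 8.07 in CCNE-TA and 9.12, 5.27 and 23.2 in TA, so that its log2 fold change of -0.90 ± 0.55 (adjusted p 0.253) rests largely on TA 3. Pcna had a log2 fold change of -0.01. Usp1 has a near-identical copy, Gm5841, over 60.9% of its length and Pcna has Pcna-ps2 over 51.4%, and how reads with several alignments were counted is not given in the sources used here.

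**Figure D3:**
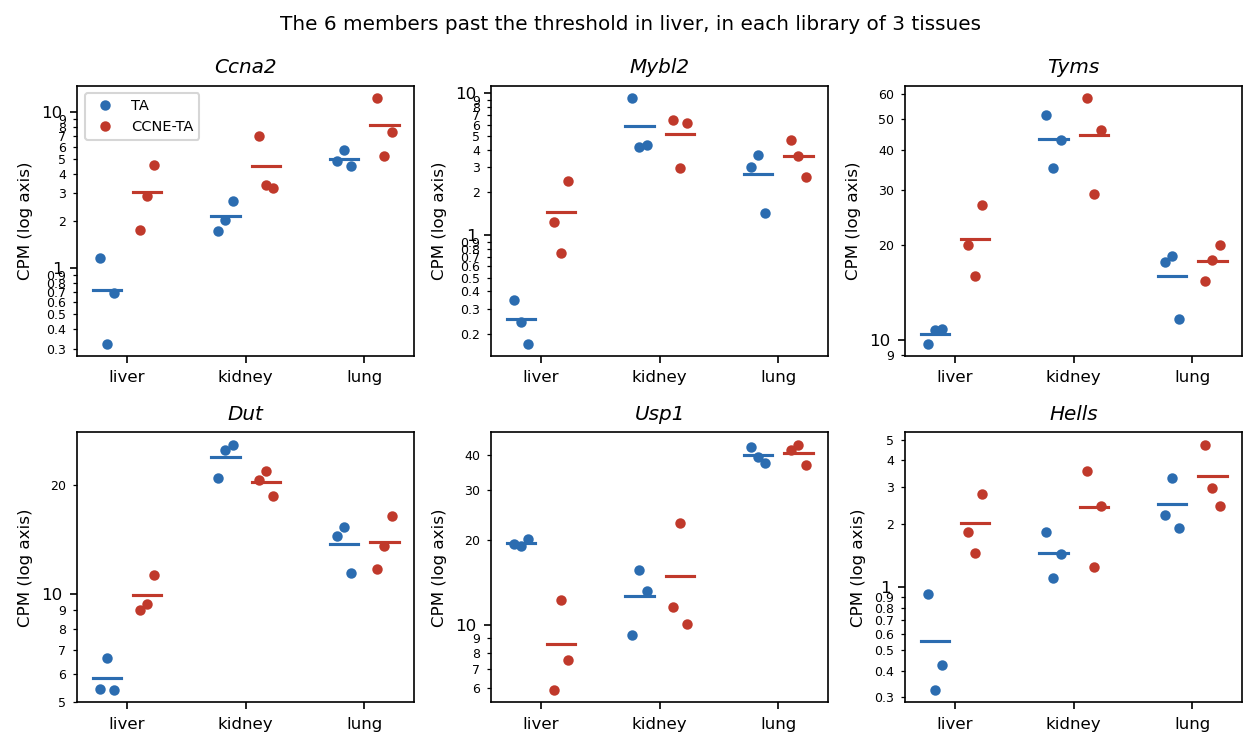
Levels of the 6 genes past the threshold in liver, in CPM on a log axis, in every TA (blue) and CCNE-TA (red) library of liver, kidney and lung. Each point is a library and each bar a mean of 3. CPM are scaled within each tissue, so heights can be compared between genotypes but not between tissues. In liver the groups do not overlap for any of the 6, and in kidney those of all but Ccna2 overlap.

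The histone chaperones Chaf1a, Chaf1b and Asf1b had log2 fold changes of 1.03, 1.02 and 1.4 in liver, none past the threshold (edgeR adjusted p 0.106, 0.0736 and 0.108), and Nasp, which carries free histones H3 and H4, had 0.12. Chaf1b, a subunit of the assembly factor CAF-1, was at 1.98, 2.49 and 4.51 against 1.54, 1.46 and 1.39 CPM, with no overlap. Chaf1a shares 52.5% of its exon bases with Ubxn6, so its counts may hold reads of that gene.

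Of the 7 genes of DNA methylation and chromatin, 1 rose in liver. Hells, the remodeller LSH that aids DNA methylation, was at 1.83, 1.45 and 2.76 CPM in CCNE-TA and 0.923, 0.324 and 0.426 in TA, or 1.82 ± 0.51 on the log2 scale (edgeR, adjusted p 0.0311). Uhrf1, which recruits Dnmt1 to new DNA, was at 1.29, 1.99 and 4.66 against 1.26, 0.351 and 0.569 CPM, a log2 fold change of 1.83 ± 0.62 that just missed the threshold (0.0565). For both genes TA 1 was the highest control, and for Uhrf1 it stood beside CCNE-TA 1. Uhrf1 has a near-identical copy, Gm5648, over 44.3% of its length, so its counts are uncertain in the same way as those of Usp1. Dnmt1 itself had 0.27, Atad2 (a bromodomain ATPase) 0.51, Suv39h1 (an H3K9 methyltransferase) 0.15, Ezh2 (the enzyme of PRC2) 0.00 and Cdca7, the partner of Hells, -0.65. None of these 5 passed the threshold.

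The liver calls depended on single libraries. The count of 6 became 0 without TA 3, 1 without TA 2, 2 without CCNE-TA 1 and 3 without CCNE-TA 3. Without CCNE-TA 2 it was 5 higher and 1 lower, and without TA 1 it was 6 higher and 1 lower. Calls over all tested genes also varied, from 1521 to 4582 in these fits against 3942 with all libraries. The share of all genes in each fit is not given here. A further fit held a term for TA 2 and TA 3, which reads the genotype effect against TA 1 alone. Under that term the log2 fold changes were 1.42 for Ccna2, 2.05 for Mybl2, 1.10 for Tyms, 0.86 for Dut, 1.12 for Hells and -1.17 for Usp1. With 1 control library that fit cannot show whether the calls hold, so effect sizes alone are given.

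**Figure D4:**
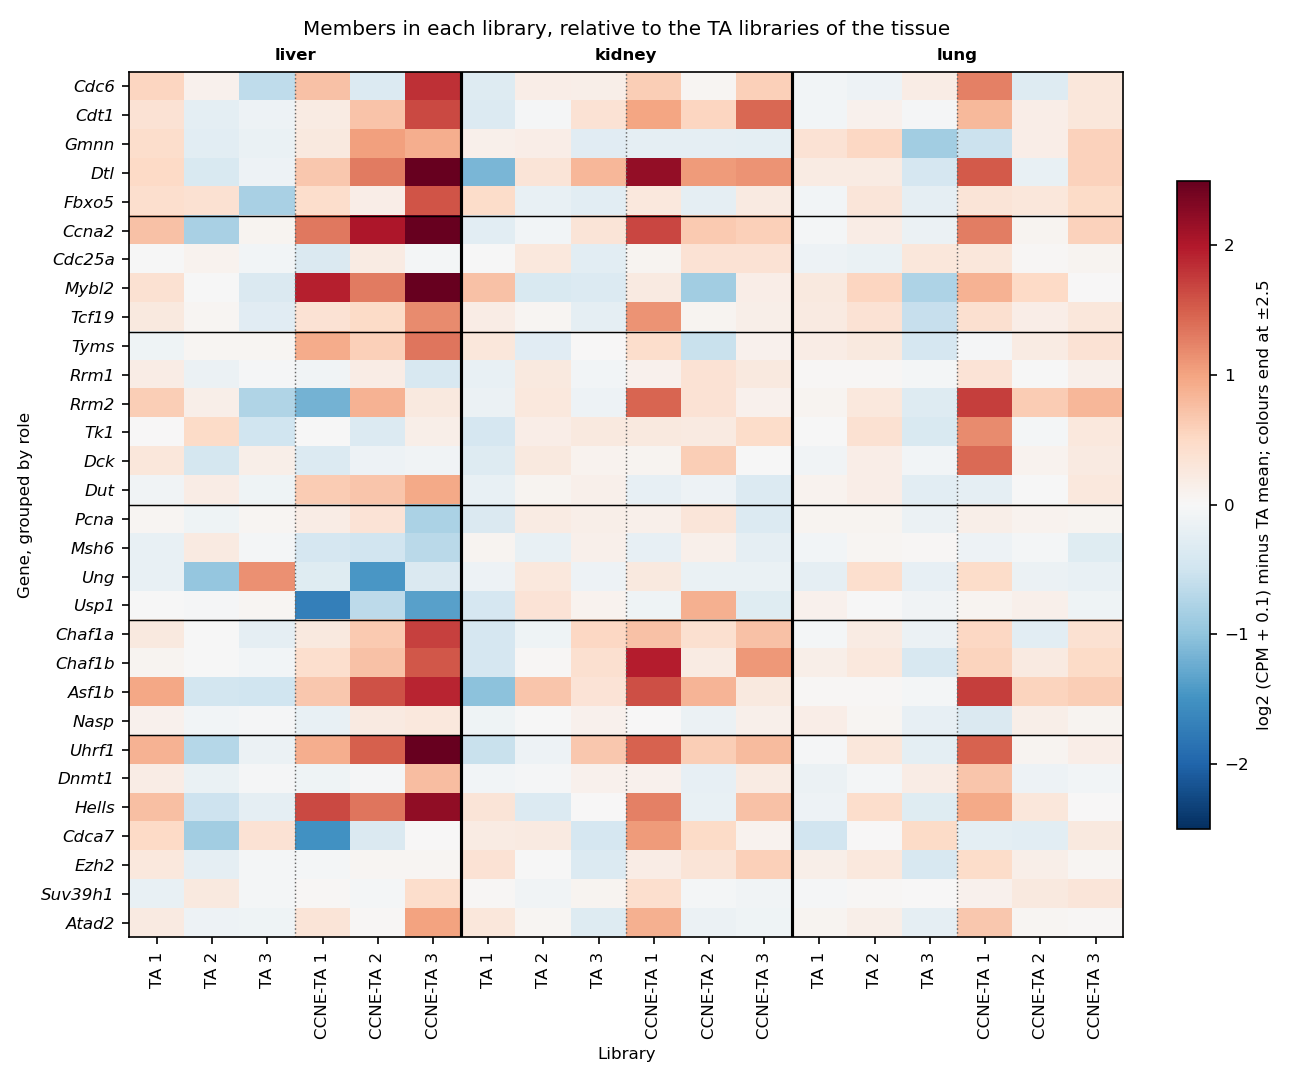
Each of the 30 genes (rows, grouped by role) in each of the 18 libraries (columns), coloured by log2 (CPM + 0.1) minus the mean of the TA libraries of the same tissue; dotted lines part TA from CCNE-TA. Liver CCNE-TA 3, kidney CCNE-TA 1 and lung CCNE-TA 1 are the reddest columns of their tissues, the highest of their groups for 21, 16 and 21 of 30 genes. Usp1 is blue in all 3 CCNE-TA livers.

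Within the liver groups the libraries were unequal. CCNE-TA 3 was the highest of its group for 21 of the 30 genes and TA 1 the highest of the controls for 22. Over the 30 genes, the median of log2 (CPM + 0.1) minus the TA mean was 0.23, 0.29 and 0.93 in CCNE-TA 1 to 3 and 0.24, -0.09 and -0.09 in TA 1 to 3, so TA 1 stood level with CCNE-TA 1. Without CCNE-TA 3 the median log2 fold change of the 30 was 0.24. Markers of other cells moved with the genotype: summed bile duct markers (6 of 6 called higher) were 231 to 337 CPM in CCNE-TA and 46.8 to 50.7 in TA, T and NK cell markers (1 of 7) 10.7 to 12.7 against 3.55 to 7.45, and endothelial markers (4 of 6 lower) 88.7 to 108 against 141 to 170. In liver, summed kidney tubule markers ran from 16.8 to 35.3 CPM across CCNE-TA and stood at 18.3 in TA 1, but at 0.378 and 0.398 in TA 2 and TA 3, where 6 of the 8 genes had no count (none of 6 tested was called). Exocrine pancreas markers were 0.939 to 1.27 CPM in CCNE-TA and 1.39 to 155 in TA, with TA 1 highest (none of 2 tested was called). None of these markers was at 0 in all libraries, and their part in the values of the 30 genes was not tested. Among all tested genes 13.7% were called higher and 14.8% lower in liver. Liver fold changes also ran with transcript length, from a median of 0.79 for genes under 1000 nt to -0.45 in the class of longest transcripts; none of the 30 falls in either class. With offsets for length and GC content 7 of the 30 genes were called (6 higher, 1 lower): Dtl and Chaf1a were added and Dut was lost (edgeR adjusted p = 0.0688). The calls over all genes under these offsets are not given here. With Xist as a covariate Dut (0.0511) and Hells (0.0594) were lost. Dut was called in 8 of its 17 alternatives.

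The other genes of the pathway were counted in liver as well. Of 13 E2F, DP and pocket protein genes, Rbl1 (p107) rose (log2 0.93) and Rbl2 (p130) and E2f6 fell (-1.43 and -0.99), with a median of -0.14. Rbl2 stood at 16.6 ± 1.16 CPM in CCNE-TA and 44.7 ± 6.78 in TA (SD, n = 3). Of 36 other G1/S genes that were tested, 5 rose and 1 fell, with a median of 0.48. Lig1 (DNA ligase 1) had 1.26, Pole (DNA polymerase epsilon) 1.59 and Rpa1 (single-strand binding) -1.06. Of all tested genes 13.7% rose and 14.8% fell, so the calls in both lists are close to or under the background shares. Of 21 G2 and mitosis genes 17 rose and none fell, with a median of 2.30, and Ube2c reached 4.18. In liver the 30 E2F targets thus stood between the other G1/S genes and the G2 and mitosis genes by median. Their medians in kidney and lung (0.26 and 0.23) were below those of the other G1/S genes (0.42 and 0.3). The difference between the lists was not tested.

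**Figure D5:**
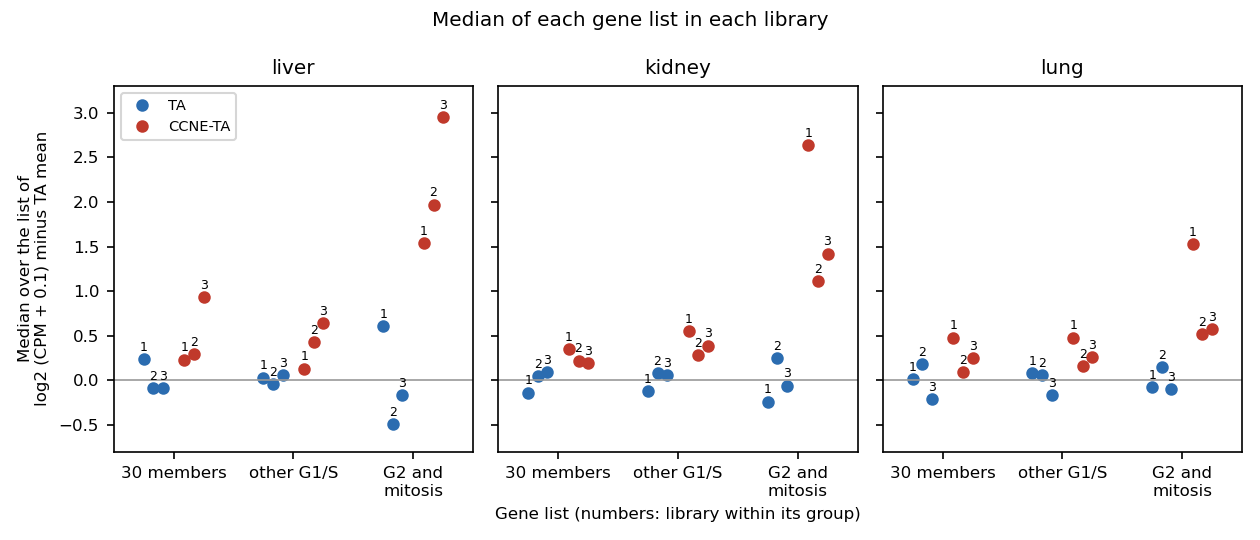
Median over the 30 genes, over the other G1/S genes and over the G2 and mitosis genes of log2 (CPM + 0.1) minus the TA mean of the tissue, for each TA (blue) and CCNE-TA (red) library of liver, kidney and lung; the small numbers name the library. The G2 and mitosis medians of CCNE-TA lie above all TA medians in each tissue, while those of the 30 genes lie within 1 log2 unit of 0.

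In kidney none of the 30 genes passed the threshold (edgeR), where 2 of 15247 tested genes did (0.0131%). At an unadjusted p under 0.05 there were 5 of the 30 (Cdt1, Chaf1b, Ccna2, Dtl and Uhrf1), against 2.13% of all genes, and DESeq2 called none of the 30 (0.167% of all genes higher, 0.0279% lower). The median log2 fold change was 0.26 against 0.00 for all genes, and 24 of the 30 lay above 0 (50.7% of all genes did). Groups did not overlap for 3 genes, all higher in CCNE-TA; of all genes 3.04% were higher and 2.68% lower without overlap.

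Those 3 genes were Cdt1, Ccna2 and Dtl. Cdt1 was at 10.6, 7.72 and 14.4 CPM in CCNE-TA and 4.17, 5.23 and 6.85 in TA, or 1.01 ± 0.30 on the log2 scale (edgeR, adjusted p 0.999, as for each of the 30 in kidney). Dtl was at 3.65, 1.59 and 1.67 against 0.266, 0.916 and 1.34 (log2 1.43 ± 0.61), and Ccna2 at 6.99, 3.38 and 3.23 against 1.73, 2.02 and 2.68 (1.07 ± 0.40). CCNE-TA 1 was far the highest library for Dtl and Ccna2, though not for Cdt1. Chaf1b was at 10.6, 3.09 and 5.76 against 1.95, 2.70 and 3.53 (1.24 ± 0.46), with CCNE-TA 2 inside the range of TA. Without CCNE-TA 1 the log2 fold changes were 1.04 for Cdt1, 0.95 for Dtl, 0.63 for Ccna2 and 0.70 for Chaf1b.

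At the other end in kidney stood Gmnn and Dut. Gmnn was at 17.8, 17.9 and 17.5 CPM against 22.7, 23.3 and 17.1 (log2 -0.25 ± 0.19), and Dut at 20.7, 21.9 and 18.7 against 20.9, 25.0 and 25.9 (-0.23 ± 0.18). The groups of both genes overlapped. By role, the chaperones had a median of 0.73, licensing 0.46, cyclin and transcription factors 0.39, methylation and chromatin 0.36, nucleotide supply 0.23 and fork and repair 0.00. Tyms and Usp1, which passed the threshold in liver, had 0.04 and 0.23, and Mybl2 had -0.18, with 6.44, 2.95 and 6.21 CPM in CCNE-TA and 9.24, 4.19 and 4.30 in TA.

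Kidney CCNE-TA 1 was the highest of its group for 16 of the 30 genes. It was also the highest kidney library in summed markers of T and NK cells (34.1 CPM, against 4.17 to 10.6 in the other 5), macrophages (397 against 202 to 247) and bile duct or other duct epithelium (7540 against 1500 to 2820). Lung epithelial markers moved with the genotype in kidney, at 32.2 to 48.1 CPM in CCNE-TA and 59.3 to 162 in TA (6 of 6 below 0 with a median of -1.62, 5 without overlap, none called). The part of these markers in the values was not tested. Of the other lists in kidney, none of 37 other G1/S genes passed the threshold (median 0.42), with Mcm5 at 1.07, Blm at 1.45 and Pole at 1.16. None of 21 G2 and mitosis genes passed either (median 1.84), and Ccnb1 (cyclin B1) had 3.11 with an edgeR adjusted p of 0.156. Among E2F genes E2f7 and E2f8, repressor members of the family, had 1.08 and 1.32 at under 1 CPM.

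In lung none of the 30 genes passed the threshold (edgeR), which Ccne1 did not pass either, and 1 of 16823 tested genes did (0.00594%), and DESeq2 called none of the 30 (0.0899% of all genes higher, 1.01% lower). At an unadjusted p under 0.05 there were 2, Rrm2 and Asf1b, against 3.65% of all genes. The median log2 fold change was 0.23 against 0.02 for all genes, and 27 of the 30 lay above 0 (53.8% of all genes did). Groups did not overlap for 4 genes (Cdt1, Rrm2, Asf1b and Suv39h1), all higher in CCNE-TA; of all genes 3.3% were higher and 4.59% lower without overlap.

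Rrm2 was at 17.5, 8.15 and 9.24 CPM in CCNE-TA and 5.44, 6.22 and 4.12 in TA, or 1.14 ± 0.35 on the log2 scale (edgeR, adjusted p 1 for each of the 30 in lung). Asf1b, a chaperone of H3 and H4, was at 9.37, 4.07 and 4.27 against 2.81, 2.80 and 2.64 (1.10 ± 0.38). In both genes all CCNE-TA libraries lay above TA, and CCNE-TA 1 stood well above the other CCNE-TA libraries. Ccna2 was at 12.3, 5.23 and 7.46 against 4.83, 5.71 and 4.52 (0.73 ± 0.34), with CCNE-TA 2 inside the range of TA. Msh6 was at 24.5, 25.9 and 21.7 against 25.5, 27.7 and 27.3 (-0.16 ± 0.13) and Cdca7 at 6.56, 6.51 and 9.25 against 5.56, 7.85 and 11 (-0.12 ± 0.30), both with overlap.

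Much of the lung pattern sat in CCNE-TA 1 and TA 3, the deepest and the shallowest lung library. CCNE-TA 1 was the highest of its group for 21 of the 30 genes and TA 3 the lowest of its group for 21. With both left out, the median log2 fold change of the 30 was 0.02, with Rrm2 at 0.58, Asf1b at 0.58, Ccna2 at 0.27, Msh6 at -0.16 and Cdca7 at 0.24. CCNE-TA 1 was also the highest lung library in summed markers of macrophages (761 CPM, against 230 to 293 in the other 5), T and NK cells (113 against 21.5 to 45.2) and neutrophils (501 against 115 to 290). Of the 6 neutrophil genes 5 were higher and 1 lower without overlap in CCNE-TA (median log2 2.59, lowest -1.84, none called). Their median of log2 (CPM + 0.1) minus the TA mean was 3.86, 1.09 and 0.7 in CCNE-TA 1 to 3. In TA 1 to 3 it was 0.37, 0.39 and -0.42. Hepatocyte transcripts were 58.0 to 308 CPM in the CCNE-TA lungs and 458 to 2390 in the TA lungs, with TA 3 the highest. The part of these in the values was not tested. By role, the lung medians ran from 0.03 for fork and repair to 0.45 for licensing. Of the 21 G2 and mitosis genes none passed the threshold (median 0.99), and Mki67 was at 56.6 ± 12.2 against 15.4 ± 3.02 CPM (SD, n = 3; log2 1.88, edgeR adjusted p = 0.607).

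Whether the genotype effect differed between tissues was tested in 1 edgeR fit of all 18 libraries. Between liver and kidney it differed for 3 of the 30 genes, 2 with a higher and 1 with a lower effect in liver, against 9.52% of all 17155 genes (4.78% higher, 4.74% lower); DESeq2 called the same 3 (10.4% of all genes higher, 7.41% lower). The difference was 2.64 ± 0.73 on the log2 scale for Mybl2 (SE, adjusted p = 0.0359), 0.99 ± 0.26 for Dut (0.0317) and -1.41 ± 0.43 for Usp1 (0.0482). The count was 0 or 1 without liver CCNE-TA 1, CCNE-TA 3, TA 1, TA 2 or TA 3, or without kidney CCNE-TA 2, CCNE-TA 3, TA 1 or TA 3, and 4 without kidney CCNE-TA 1. Calls over all tested genes varied too, from 396 to 2717 with 1 library left out, against 1634 with all libraries. With the replicate number as a block only Usp1 passed (adjusted p = 0.0483, against 0.0578 for Mybl2 and 0.089 for Dut). Between liver and lung none passed (12.7% of all genes did, 6.23% higher and 6.51% lower), with Usp1 at -1.23, Mybl2 at 2.03 and Dut at 0.72 (adjusted p 0.0651, 0.0734 and 0.0778), and DESeq2 called these 3 (12% of all genes higher, 8.25% lower). Between kidney and lung none passed (0.00583% of all genes did). DESeq2 called none of the 30 there, but it gave an adjusted p to only 3511 genes, of which 3.25% were higher and 0.171% lower. How many of the 30 are among those 3511 is not given here.

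Over the 3 tissues, 16 of the 30 genes had a fold change above 0 in each, among them Cdt1, Dtl, Ccna2, Tyms, Rrm2, Asf1b, Uhrf1 and Hells. Msh6 was below 0 in each. The shares of all genes with these signs are not given here. Dtl and Cdc25a, whose promoter stretches share their E2F word, had log2 fold changes of 1.90, 1.43 and 0.82 and of -0.05, 0.26 and 0.11 in liver, kidney and lung. Of the 26 genes with a promoter window, the 11 with a word of 8 letters had liver, kidney and lung medians of 0.27, 0.46 and 0.22, and the 15 without it 0.73, 0.22 and 0.24. Of the called liver genes with a window, 1 held the word (Hells) and 3 did not (Mybl2, Tyms and Dut).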

How the data were processed

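Per the labels' protocols, libraries were made from 100 to 200 ng of column-extracted RNA with a TruSeq v2 kit, which does not mark the strand. Per the submitters' processing notes, TopHat2 2.0.14, Bowtie2 2.2.6 and featureCounts 1.4.6 of Subread were used with build mm10; the annotation and the counting of reads with several alignments are not given in the sources used here. The deposited values are raw counts per gene symbol. Among counts of 1 to 20, 64.2% to 71.2% per library were even, so single counts may not be independent fragments.

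Each tissue was fitted alone with edgeR 4.0.16 (R 4.3.3): filterByExpr, TMM, robust quasi-likelihood F test, Benjamini-Hochberg adjustment over all tested genes, threshold 0.05. Differences between tissues came from 1 fit of 18 libraries. CPM are scaled within a tissue unless said otherwise. Alternatives included DESeq2 1.42.0, limma-voom 3.58.1, other scalings and filters, Xist as a covariate, spline offsets (4 degrees of freedom) for length and GC (GENCODE M21; 98.5% of symbols had a length) and each library left out. Scripts were tested on simulated data.

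Members and lists were chosen with earlier results of these data known. Values of every library are given for genes past the threshold and, per tissue, for the 3 lowest p and the 2 highest and 2 lowest fold changes; Dtl, Uhrf1, Chaf1b and Cdc25a in liver and Mybl2 in kidney were added after their values were seen. Other lists name up to 3 genes per tissue by p. Same-numbered CCNE-TA and TA libraries deviated together in kidney (correlations across genes 0.32, 0.5 and 0.35), a pairing that comes from the data, and not in liver (0.2, 0 and 0.08) or lung (-0.5, -0.07 and -0.6). No pair of replicates agreed within sampling noise (chi-square per degree of freedom 56.8 to 801), so each was counted.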

Additional observations from a re-analysis of the deposited data

Results flagged for a closer look

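For 3 of the 30 genes the genotype effect differed between liver and kidney by the interaction test of edgeR, which drew attention to them. Of all 17155 tested genes 9.52% differed by the same test, so the count of 3 is close to the background share. Mybl2 had a log2 fold change higher in liver by 2.64 ± 0.73 (SE, adjusted p = 0.0359), and over the fits that left out 1 library the difference stayed between 2.13 and 2.98 (adjusted p 0.0171 to 0.0943). Dut had a difference of 0.99 ± 0.26 (adjusted p = 0.0317; 0.9 to 1.09 with a library left out, adjusted p 0.0287 to 0.0687). Usp1 had -1.41 ± 0.43 (adjusted p = 0.0482; -1.79 to -0.94, adjusted p 0.0126 to 0.144). In liver all CCNE-TA libraries lay on 1 side of all TA libraries for each of the 3, and in kidney their groups overlapped. The 3 genes were picked by this difference in these same libraries, so that pattern is no separate support for it.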

How the results depend on the processing

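Of the 30 genes, the 6 called in liver became 10 (9 higher, 1 lower) with upper quartile scaling and 11 (9 and 2) in the fit of all 18 libraries. The calls over all genes in these 2 settings are not given here, so the rises are not a result about the 30 alone. With 1 library left out the count ran from 0 to 7. DESeq2 gave 9 (8 and 1), where it called 18% of all genes in each direction. The cause was not tested. All 6 kept their sign in every setting that gave a value. For the differences between liver and kidney the count of 3 became 1 with the replicate block and 0 to 4 with a library left out. The fits with a library left out called 396 to 2717 of all tested genes for that difference. Between liver and lung the count of 0 became 3 with DESeq2, 0 to 2 with a library left out and 1 without lung CCNE-TA 1 and TA 3, a setting added after the data were seen. Here the fits with a library left out called 693 to 3084 of all tested genes. The block changed no call of the 30 in kidney or lung, and in liver it lost that of Dut, which the length and GC offsets and the Xist covariate lost too. Cdca7 in lung (-0.12) ran from -0.34 to 0.14 with a library left out, turning above 0 without TA 3, and was 0.24 without CCNE-TA 1 and TA 3. Over all tested genes, the 3942 called in liver became 1521 to 4582 with a library left out. Those called by DESeq2 numbered 28 in kidney (2 in edgeR) and 183 in lung (1 in edgeR; 94 in the fit of all libraries, 0 with limma-voom or the block). For differences between tissues DESeq2 called 3034 (1634), 3459 (2184) and 120 (1), and the block 818 and 1135 of the first 2. At these depths Cdc6, Mybl2 and Dtl in liver rest on few counts.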

Other observations

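These regulators of the pathway were chosen after their values were seen. CPM here are on scales set within each tissue, so they do not give an order of the tissues. Usp1 in TA, for example, was at 19.5 CPM in liver and 39.7 in lung on these scales. On the scale of all 18 libraries it was at 33.8 and 27.2. Rb1 stood at 6.95 CPM in TA liver, 55.6 in kidney and 51.8 in lung, and Rbl2 at 44.7, 38.5 and 63.9. E2f1 stood at 3.6, 4.34 and 11.7 CPM and E2f2 at 1.23, 3.93 and 34.5. E2f8, a repressor of the family, was at 10.4 CPM in TA liver and at 0.391 in kidney and 1.6 in lung; its log2 fold change with the transgene was -0.44, 1.32 and 1.24 in liver, kidney and lung, none past the threshold (edgeR adjusted p 0.415, 0.999 and 1), and neither did the differences of that effect pass, at -1.78 ± 0.92 for liver minus kidney and -1.72 ± 0.84 for liver minus lung (SE, edgeR adjusted p 0.215 and 0.174). For Rbl2 both differences passed, at -1.27 ± 0.24 and -1.6 ± 0.24 (adjusted p 0.00973 and 0.00286).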
